A study of Homo sapiens with 15 samples.

Results

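A set of 40 genes of endoplasmic reticulum (ER) protein folding and the unfolded protein response was followed in MCF10A cells given less glutamine. The rule takes them by symbol from a list, which was drawn up with earlier results of these data known, and all 40 were found among the 62754 Ensembl genes of the count table. Of these, 39 had enough counts to be tested. DERL3 was not tested, since 14 of its 15 libraries held no count; it is given as a level only. MCF10A is an established, non-tumorigenic human breast epithelial line, used here as wild type. RNA was measured in 5 groups of 3 biological replicates, 15 libraries in all: full medium with 2.5 mM glutamine, and the same DMEM/F12-based medium with glutamine limited to 0.28, 0.20, 0.12 or 0.04 mM. All 5 groups shared the mammary growth supplements, cholera toxin and penicillin-streptomycin of the maintenance medium as far as the labels tell, and the time spent at each concentration is not given in the sources used here.

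The ER lumen is where secreted and membrane proteins are folded. HSPA5 (BiP), an HSP70 chaperone, holds nascent chains with the help of J-domain co-chaperones and the nucleotide exchange factor HYOU1, while calreticulin and calnexin hold glycoproteins and the protein disulfide isomerases form disulfide bonds. When unfolded chains accumulate, the sensors ATF6, IRE1 (encoded by ERN1) and PERK (encoded by EIF2AK3) raise the transcription of chaperones and of ER-associated degradation (ERAD) genes, the last through translation of ATF4. IRE1 acts by splicing the mRNA of XBP1, a step that counts summed over the gene do not show.

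The libraries held 3704170 to 13361406 gene counts, and those numbered 1 (11228596 to 13361406) were deeper than those numbered 3 (3704170 to 8762578). The labelled cell type was met by its markers: the basal keratins KRT5, KRT14 and KRT17 stood at median levels of 6720, 3181 and 2602 CPM (counts scaled to the library size after TMM normalisation), and CDH1 at 81.8 and EPCAM at 4.61 CPM, against 0 CPM for CD3E, LUM and CDH5 in all 15 libraries. Of the fibroblast list, COL1A1 and DCN were present at medians of 17.1 and 23.8 CPM. Mitochondrial ribosomal RNA took 2.97% of counts in 0.04 mM replicate 3 and 1.62% in 0.12 mM replicate 3, and at most 0.402% elsewhere. Replicate numbers set libraries apart more than glutamine did. For the 39 members a median of 54.9% of the variance in log2 CPM lay between replicate numbers (1.38% for XBP1 to 92.4% for SEC61A1) and 21.4% between groups, against 36.8% and 23.9% over all 13828 genes tested. In 32 of the 39 members the numbers took the larger share; 17 members were highest in replicate 1 and 21 were lowest in replicate 3. What the numbers stand for is not given in the sources used here.

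The abundance of the members spanned a wide range, set here by CPM per kilobase of the principal transcript in full medium (mean ± SD, n = 3). The lectin chaperone CALR led with 627 ± 114 CPM per kb. Calnexin (CANX, 355 ± 32.1), the disulfide isomerase P4HB (348 ± 32.3), the HSP90 paralogue HSP90B1 (259 ± 40) and HSPA5 (229 ± 4.68) followed. CANX and P4HB, next to each other in this order, overlapped in their per-library values (321 to 385 and 326 to 385 CPM per kb). At the low end stood ERN1 (2.69 ± 0.199), the J-protein DNAJB9 (2.44 ± 0.281), the oxidase ERO1B (1.37 ± 0.278) and DERL3 (0.0358 ± 0.062). XBP1 held an intermediate place at 58.7 ± 1.83 CPM per kb, rank 13 of 40. Summed over all 40 genes, the level in full medium was 9627, 9387 and 9285 CPM for replicates 1, 2 and 3. It was 9645, 9275 and 8126 CPM at 0.28 mM and 9489, 8928 and 8074 at 0.20 mM. It was 9218, 9140 and 8221 CPM at 0.12 mM and 9437, 8840 and 8599 at 0.04 mM. All 3 libraries at 0.12 mM lay below full medium, the other limited groups overlapped it through replicate 1, and replicate 3 was lowest in every group.

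Several members carry the sequence through which ATF6 and XBP1, with NF-Y, are known to act, and 6 of their promoters are printed to show it. Of the 40 members, 37 had a promoter window in RefSeq (build GRCh38.p14), covering 250 bases before to 50 bases after the start site. The ER stress element, spelled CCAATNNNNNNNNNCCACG and searched on both strands, was found in 7 members (HSPA5, HSP90B1, CRELD2, CALR, CANX, ERO1B and XBP1). Of the windows of tested genes 14 of 10237 held it (0.137%), and of all windows 22 of 27305 (0.0806%). ERSE-II, spelled ATTGGNCCACG, was found in HYOU1, SDF2L1 and HERPUD1, against 0.107% of tested and 0.0549% of all windows. The unfolded protein response element TGACGTGG was found in HYOU1, DNAJC10 and SEC62, against 0.928% of tested and 0.795% of all windows; in HYOU1 it overlaps an ERSE-II match. Each line below gives the 250 bases before the start site, 5′ to 3′ on the gene's strand, with the matches in capitals. They lie at chr9:125241344-125241593 (minus strand) for HSPA5, chr19:12938359-12938608 (plus) for CALR, chr22:49918384-49918633 (plus) for CRELD2, chr22:28800570-28800819 (minus) for XBP1, chr11:119057206-119057455 (minus) for HYOU1 and chr16:56931892-56932141 (plus) for HERPUD1.
HSPA5: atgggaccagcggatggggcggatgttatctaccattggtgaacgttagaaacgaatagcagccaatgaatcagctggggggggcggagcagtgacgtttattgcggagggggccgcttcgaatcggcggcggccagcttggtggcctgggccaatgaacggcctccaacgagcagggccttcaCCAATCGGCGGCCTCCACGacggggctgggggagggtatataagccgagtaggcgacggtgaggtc
CALR: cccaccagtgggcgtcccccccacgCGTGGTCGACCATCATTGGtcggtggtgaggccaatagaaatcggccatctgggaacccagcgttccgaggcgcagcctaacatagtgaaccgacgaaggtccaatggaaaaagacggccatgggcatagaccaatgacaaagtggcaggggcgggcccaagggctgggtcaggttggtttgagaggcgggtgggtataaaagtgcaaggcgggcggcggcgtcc
CRELD2: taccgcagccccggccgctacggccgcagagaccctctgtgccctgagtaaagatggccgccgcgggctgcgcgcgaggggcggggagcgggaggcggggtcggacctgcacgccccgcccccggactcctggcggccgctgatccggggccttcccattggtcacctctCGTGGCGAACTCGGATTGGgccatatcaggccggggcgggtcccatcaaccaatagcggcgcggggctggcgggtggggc
XBP1: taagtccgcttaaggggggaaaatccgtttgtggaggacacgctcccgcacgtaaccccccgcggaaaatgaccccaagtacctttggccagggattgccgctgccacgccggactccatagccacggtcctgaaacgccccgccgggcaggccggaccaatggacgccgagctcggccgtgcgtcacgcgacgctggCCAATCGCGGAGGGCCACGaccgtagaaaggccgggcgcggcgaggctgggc
HYOU1: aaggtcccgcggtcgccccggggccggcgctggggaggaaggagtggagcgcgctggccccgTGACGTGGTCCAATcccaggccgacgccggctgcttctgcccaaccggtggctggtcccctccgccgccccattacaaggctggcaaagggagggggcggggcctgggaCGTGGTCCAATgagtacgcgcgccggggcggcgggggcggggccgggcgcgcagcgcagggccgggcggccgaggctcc
HERPUD1: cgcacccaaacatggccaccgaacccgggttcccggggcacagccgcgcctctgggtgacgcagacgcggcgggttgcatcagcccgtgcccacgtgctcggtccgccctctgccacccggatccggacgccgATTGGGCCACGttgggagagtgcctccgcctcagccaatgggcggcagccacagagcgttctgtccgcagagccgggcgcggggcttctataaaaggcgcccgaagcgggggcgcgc
HSPA5 and XBP1 carry the element close to the start site, at bases -66 to -48 and -52 to -34, CALR carries it at -225 to -207, and HYOU1 carries ERSE-II at -185 to -175 and again at -79 to -69. A match of letters is a description of the window and shows no binding.

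Changes with glutamine were small and mixed in direction. Each limited group was compared with full medium by edgeR's quasi-likelihood test on counts, fitted over all 15 libraries, with Benjamini-Hochberg adjustment over 13828 genes and a call at adjusted p under 0.05. All 4 comparisons share the 3 full-medium libraries, so they are not independent of one another. In the model with groups alone, 0 of 39 members passed in any of them. The lowest adjusted p among members was 0.368 at 0.04 mM, 0.515 at 0.12 mM, 0.495 at 0.20 mM and 1 at 0.28 mM, while 4, 1, 0 and 0 members had an unadjusted p under 0.05, and DESeq2 without the block called 0 members as well. At adjusted p under 0.05, that edgeR model called 0.0434, 0, 0.0145 and 0% of all tested genes. These shares are no background for the counts at an unadjusted p or for DESeq2, whose shares over all genes are not given here. The libraries of 1 replicate number deviated together, so a second model held the replicate number as a block, and the calls below are from it unless stated otherwise.

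With the block, members were called lower more often than higher at 0.12 and 0.20 mM, and in both directions at 0.04 mM. At 0.04 mM, 5 members rose (DNAJC3, ERO1A, EDEM1, SELENOS and SEC61G) and 4 fell (HYOU1, MANF, CALR and SYVN1), where 7.21% of all tested genes rose and 6.23% fell. At 0.12 mM, 0 rose and 5 fell (HYOU1, MANF, CRELD2, CALR and SYVN1), against 4.41% and 3.9% of all tested genes. At 0.20 mM, 3 rose (DNAJC3, SELENOS and SEC63) and 8 fell (HSPA5, HYOU1, MANF, CRELD2, CALR, PDIA4, WFS1 and SYVN1), against 7.67% and 7.15%. At 0.28 mM, 0 rose and 0 fell, against 1.23% and 0.846%. There, 11 members had an unadjusted p under 0.05, and DESeq2 with the block called 1, CALR. The shares given are for adjusted p and are no background for the 11, whose share over all genes is not given here. Over the 4 comparisons 6 members rose at least once, 8 fell at least once, none did both, and 25 passed in none. The share of all tested genes called at least once is not given here, so these counts have no background beside them. The median log2 fold change of the 39 members was 0.0044 at 0.04 mM, -0.031 at 0.12 mM, -0.017 at 0.20 mM and 0.014 at 0.28 mM, beside 0.0064, 0.0047, 0.0033 and 6.7e-05 over all genes tested.

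**Figure D1:**
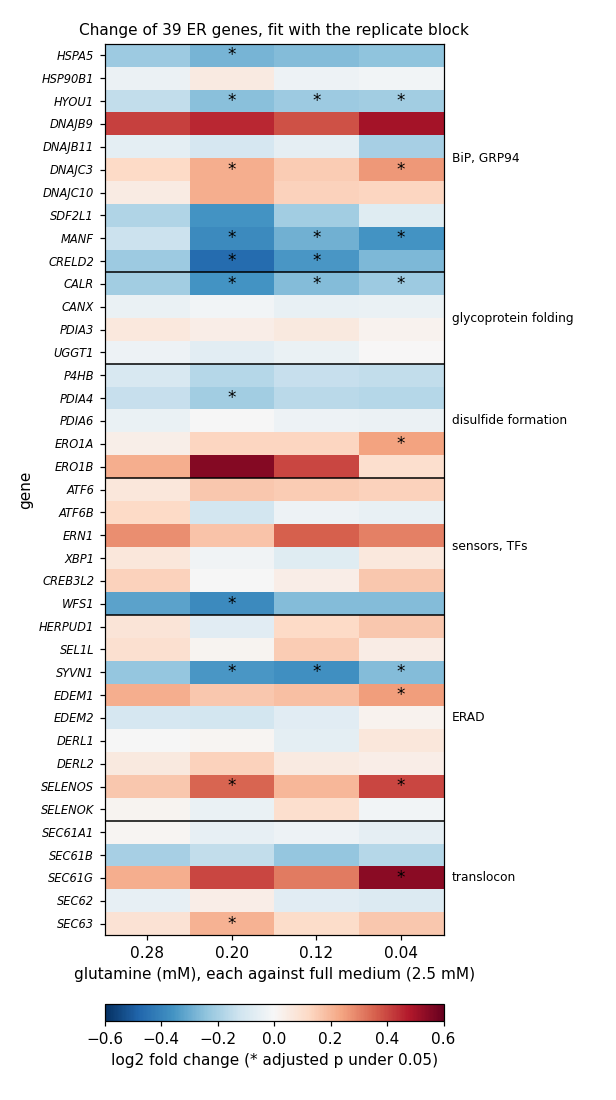
Log2 fold change of the 39 tested members (rows, ordered by role) at each glutamine concentration against full medium (columns), from the edgeR fit with the replicate block; red is higher and blue lower than in full medium, and a star marks an adjusted p under 0.05. The 4 members called lower in 3 comparisons (HYOU1, MANF, CALR and SYVN1) sit in 3 role groups, and no star falls in the 0.28 mM column.

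Scaling and composition bear on these counts. Scaling to the ERCC spike-ins, RNAs added at a fixed dose, moved the median of all genes to -0.18 at 0.12 mM and -0.13 at 0.28 mM (log2), to -0.045 at 0.20 mM and to 0.00048 at 0.04 mM. The member medians moved with it, to -0.22, -0.12, -0.068 and 0.0019. Of all genes called on that scale, 76 rose and 1130 fell at 0.12 mM, 18 and 102 at 0.28 mM, and 141 and 280 at 0.20 mM. Of the members, 8 then fell at 0.12 mM and 3 at 0.20 mM, none of them rising, while 1 rose at 0.04 mM and none passed at 0.28 mM. The 8 members that fell were GC-rich beside the 6 that rose, with median transcript GC contents of 54.8% (46 to 61.4%) and 42.6% (38.7 to 49.1%), against 48.6% for all tested genes. With an offset for GC content and length, added after the data had been seen, HSPA5 at 0.04 mM passed (-0.28, adjusted p = 0.0168), and in all 2 members rose and 3 fell at 0.04 mM, 0 and 3 at 0.12 mM, and 1 and 4 at 0.20 mM. Of all genes tested with that offset, 723 rose and 840 fell at 0.04 mM, 487 and 621 at 0.12 mM, and 423 and 543 at 0.20 mM. Without replicate 3 of all groups, which held the shallowest libraries, the block fit called 0 members at 0.04 mM, 1 at 0.12 mM and 4 at 0.20 mM, and with all libraries thinned to an equal depth it called 0, 2 and 3. Without the 2 libraries rich in mitochondrial ribosomal RNA it called 2, 3 and 12. For these last 3 settings the share over all genes is not given here. In bulk RNA, fewer cells of a kind and less RNA per cell cannot be told apart.

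Within the BiP system, the major chaperone HSPA5 (chr9:125234853-125241343) was lower in replicates 2 and 3 and level in replicate 1. It stood at 891, 913 and 877 CPM in full medium (replicates 1, 2 and 3), at 926, 821 and 601 at 0.28 mM, at 923, 729 and 605 at 0.20 mM, at 878, 762 and 632 at 0.12 mM and at 896, 740 and 669 at 0.04 mM. Full medium was even across replicates, and each limited group was spread, with replicate 1 inside or above the range of full medium and replicate 3 lowest. HSPA5 fell at 0.20 mM (log2 fold change -0.28, SE 0.0853, adjusted p = 0.0263 with the block in edgeR). At 0.04, 0.12 and 0.28 mM its values of -0.24, -0.26 and -0.22 did not pass (adjusted p = 0.0629, 0.0536 and 0.182). The call at 0.20 mM rested on single libraries: it was lost without full medium replicate 3 (-0.15, adjusted p = 0.246), without full medium replicate 2 (-0.27, 0.071), and without 0.20 mM replicate 2 (-0.25, 0.11) or 3 (-0.25, 0.122). It passed under 6 of the 9 other settings, and without replicate 3 of all groups its value was -0.13 (0.359).

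HYOU1 (chr11:119044188-119057205), the exchange factor that releases substrate from BiP, was lower in every limited library than in the full-medium library of its number. It stood at 560, 444 and 427 CPM in full medium, at 537, 436 and 334 at 0.28 mM, at 489, 396 and 325 at 0.20 mM, at 486, 408 and 341 at 0.12 mM and at 500, 396 and 351 at 0.04 mM. Because replicate 1 was high throughout, all groups overlapped full medium. With the block, HYOU1 fell by 0.21, 0.22 and 0.25 on the log2 scale at 0.04, 0.12 and 0.20 mM (adjusted p = 0.0346, 0.0341 and 0.00933), and its value of -0.15 at 0.28 mM did not pass (0.269). Without full medium replicate 3 none of its 3 calls was left, and the value at 0.04 mM was -0.14 (adjusted p = 0.191). Leaving out any single library of the limited group also ended the calls at 0.04 and 0.12 mM, with values from -0.25 to -0.14 and from -0.26 to -0.15 over the libraries left out, and leaving out 0.20 mM replicate 3 ended that at 0.20 mM. Of the 9 other settings, 4, 5 and 6 kept the calls at 0.04, 0.12 and 0.20 mM, and spike-in scaling was among those that ended the first and the third.

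MANF and CRELD2, small ER proteins known as targets of the unfolded protein response, were lower as well. MANF (chr3:51385291-51389397) stood at 101, 76.7 and 88.1 CPM in full medium, at 103, 81.0 and 61.2 at 0.28 mM, at 86.3, 63.9 and 56.3 at 0.20 mM, at 90.9, 64.4 and 63.4 at 0.12 mM and at 85.1, 65.6 and 57.3 at 0.04 mM. In each of the 3 lowest concentrations all libraries were below their full-medium counterpart, though the groups overlapped, while at 0.28 mM replicate 3 alone was lower. MANF fell by 0.36, 0.29 and 0.38 on the log2 scale at 0.04, 0.12 and 0.20 mM (SE 0.0896, 0.087 and 0.086; adjusted p = 0.00663, 0.0317 and 0.00329), and at 0.28 mM had -0.13 (0.489). All 3 calls were lost without full medium replicate 3, which left -0.23 at 0.04 mM (adjusted p = 0.0766), -0.16 at 0.12 mM (0.28) and -0.24 at 0.20 mM. At 0.12 mM the call was also lost without any 1 of the 0.12 mM libraries. Of the 9 other settings, 5, 4 and 6 kept the 3 calls, and with the GC and length offset none was kept (-0.26, -0.24 and -0.27).

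CRELD2 (chr22:49918634-49927537), a disulfide isomerase-like protein, stood at 56.4, 44.2 and 38.1 CPM in full medium, at 52.0, 43.4 and 25.2 at 0.28 mM, at 44.7, 32.8 and 24.3 at 0.20 mM, at 46.7, 35.3 and 28.1 at 0.12 mM and at 52.5, 36.3 and 27.3 at 0.04 mM. Every limited library was below its full-medium counterpart, and replicate 1 kept the groups overlapping. CRELD2 fell by 0.46 at 0.20 mM (SE 0.0976, adjusted p = 0.0018) and by 0.35 at 0.12 mM (SE 0.0989, 0.0252), and had -0.27 at 0.04 mM (0.0779) and -0.22 at 0.28 mM (0.245). The call at 0.20 mM passed without each of the 6 libraries compared (-0.53 to -0.37) and under all 9 other settings with the block. The call at 0.12 mM was lost without full medium replicate 3 (-0.26, adjusted p = 0.143) and without 0.12 mM replicate 1 or 2 (both -0.33, 0.114 and 0.102), and passed under 5 of the 9 other settings.

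**Figure D2:**
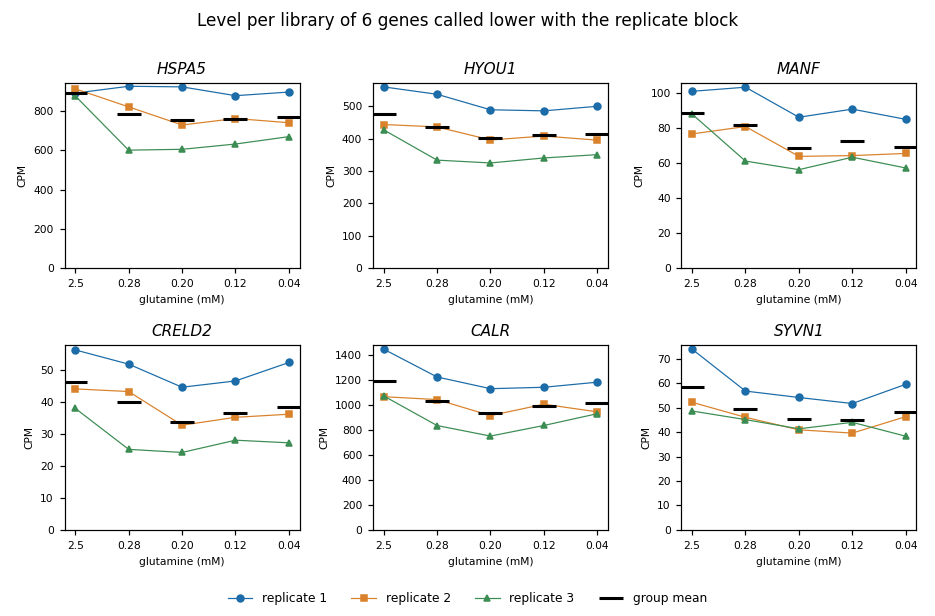
Level in CPM (vertical axis, from 0) of 6 genes called lower in at least 1 comparison with the block, by glutamine concentration in mM (horizontal axis, equally spaced); each point is a library, lines join libraries of 1 replicate number, and black bars are means of 3. Replicate 1 (blue) lies highest in most groups and keeps the groups overlapping, and HSPA5 in replicate 1 is level at 878 to 926 CPM.

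Of the 4 J-domain co-chaperones, DNAJC3 was called higher and DNAJB9, DNAJB11 and DNAJC10 passed in no comparison. DNAJC3 (P58IPK, chr13:95677139-95794988), a BiP co-chaperone also known to bind PERK, stood at 157, 156 and 142 CPM in full medium, at 179, 175 and 141 at 0.28 mM, at 187, 182 and 162 at 0.20 mM, at 174, 179 and 151 at 0.12 mM and at 193, 179 and 173 at 0.04 mM. At 0.20 and 0.04 mM all 3 libraries lay above all of full medium. DNAJC3 rose by 0.26 on the log2 scale at 0.04 mM (SE 0.0649, adjusted p = 0.00677) and 0.22 at 0.20 mM (SE 0.0635, 0.016), and had 0.15 and 0.12 at 0.12 and 0.28 mM (0.162 and 0.359). The call at 0.04 mM passed without each of the 6 libraries (0.23 to 0.30) and under 4 of the 9 other settings; with the GC and length offset its value was 0.13 (adjusted p = 0.214). The call at 0.20 mM was lost without full medium replicate 2, 0.20 mM replicate 1 or 0.20 mM replicate 3 (values 0.20 to 0.25 over the libraries left out). It passed under 4 of the 9 other settings, and with the GC and length offset its value was 0.041 (adjusted p = 0.774).

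DNAJB9 (ERdj4, chr7:108569874-108574850), an IRE1-dependent co-chaperone, was among the least abundant members, with 34 to 108 counts per library. It stood at 6.74, 7.33 and 5.81 CPM in full medium, at 6.55, 9.73 and 11.1 at 0.28 mM, at 8.65, 7.49 and 11.5 at 0.20 mM, at 6.99, 8.74 and 11.2 at 0.12 mM and at 7.73, 11.4 and 9.19 at 0.04 mM. The libraries at 0.04 and 0.20 mM lay above full medium without overlap. Its log2 fold changes of 0.50, 0.38, 0.45 and 0.41 (in order of rising glutamine) did not pass (adjusted p = 0.102, 0.258, 0.111 and 0.297). SDF2L1 (chr22:21642302-21644299), which works with ER J-proteins, stood at 26.1, 24.0 and 19.6 CPM in full medium, at 24.5, 25.5 and 12.5 at 0.28 mM, at 23.2, 19.99 and 11.9 at 0.20 mM, at 26.9, 16.1 and 18.0 at 0.12 mM and at 27.7, 23.4 and 15.4 at 0.04 mM. Its libraries were mixed at 0.04 and 0.12 mM and all below their counterpart at 0.20 mM, where -0.36 did not pass (adjusted p = 0.0893). The 3 other members of the system, HSP90B1, DNAJB11 and DNAJC10, passed in none of the comparisons; HSP90B1, next to HSPA5 in level per length, had -0.017, -0.031, 0.054 and -0.034 in order of rising glutamine (SE 0.0728 to 0.0731).

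Of the glycoprotein-folding members, CALR (calreticulin, chr19:12938609-12944489) fell and its partner lectin CANX did not pass. CALR stood at 1446, 1065 and 1072 CPM in full medium, at 1223, 1042 and 834 at 0.28 mM, at 1129, 914 and 750 at 0.20 mM, at 1140, 1005 and 835 at 0.12 mM and at 1181, 944 and 929 at 0.04 mM. Every limited library was below the full-medium library of its number, and the groups overlapped through replicate 1. CALR fell by 0.36 at 0.20 mM (SE 0.0769, adjusted p = 0.00165), by 0.26 at 0.12 mM (0.0281) and by 0.22 at 0.04 mM (0.0481), and had -0.21 at 0.28 mM (0.148). The call at 0.20 mM passed without each of the 6 libraries (-0.43 to -0.32) and under all 9 other settings with the block (-0.42 to -0.29). Those at 0.04 and 0.12 mM were each lost without full medium replicate 1 or 3 and without 2 of the limited libraries (replicates 1 and 2 at 0.04 mM, 1 and 3 at 0.12 mM), with values of -0.29 to -0.18 and -0.33 to -0.22, and passed under 3 and 6 of the 9 other settings. CANX had -0.042, -0.046, -0.017 and -0.042 (SE 0.0735 to 0.0736), and PDIA3 and UGGT1, the glucosyltransferase that re-marks misfolded glycoproteins, also passed in none; PDIA3 shares 18.9% of its exonic length with other genes and has 2 pseudogenes named after it.

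**Figure D3:**
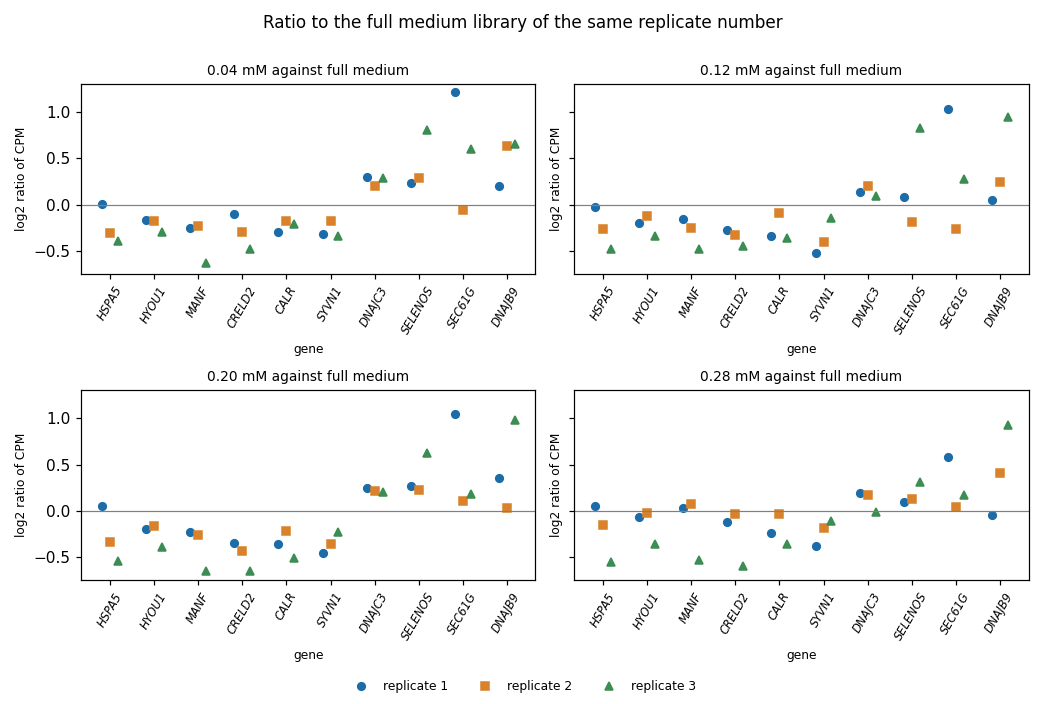
Log2 ratio of CPM to the full-medium library of the same replicate number (vertical axis) for 10 genes (horizontal axis) in the 4 comparisons; each point is 1 pair of libraries. HYOU1, CALR, CRELD2 and SYVN1 lie below 0 in all 12 pairs, HSPA5 is near 0 in replicate 1, and the SEC61G rise at 0.04 mM is 1.21 in replicate 1 and -0.058 in replicate 2.

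Of the 5 disulfide-forming enzymes, 1 rose and 1 fell, each in 1 comparison. The oxidase ERO1A, which recharges the disulfide isomerases, rose at 0.04 mM from 104 to 124 CPM on average (log2 fold change 0.24, SE 0.077, adjusted p = 0.0318), with pair values of 0.096, 0.42 and 0.22, and did not pass elsewhere. The call was lost without full medium replicate 2 or 0.04 mM replicates 2 or 3 (0.17 to 0.32) and passed under 2 of the 9 other settings, with 0.11 (adjusted p = 0.388) under the GC and length offset. PDIA4 fell at 0.20 mM from 488 to 424 CPM (-0.21, SE 0.0654, adjusted p = 0.0287), and its 3 libraries there lay below all of full medium. That call was lost without full medium replicate 3 or 0.20 mM replicates 1 or 3 (-0.25 to -0.16) and passed under 4 of the 9 other settings, with -0.13 (adjusted p = 0.335) without replicate 3 of all groups. P4HB, PDIA6 and the low-abundance ERO1B passed in none; ERO1B had 0.55 at 0.20 mM (SE 0.21, adjusted p = 0.0742) with all 3 libraries above full medium.

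Of the sensors and transcription factors, XBP1 (chr22:28794560-28800569), the target of IRE1, had the most even values of all members across replicate numbers. It stood at 105, 108 and 112 CPM in full medium, at 115, 112 and 114 at 0.28 mM, at 113, 108 and 98.9 at 0.20 mM, at 100.0, 101 and 109 at 0.12 mM and at 109, 115 and 117 at 0.04 mM. All groups overlapped full medium, and the log2 fold changes of 0.064, -0.075, -0.020 and 0.069, in order of rising glutamine, had adjusted p of 0.605, 0.579, 0.895 and 0.677. ERN1, the gene of IRE1, had 0.30, 0.36, 0.17 and 0.28 (adjusted p = 0.105, 0.0589, 0.35 and 0.218) and did not overlap full medium at 0.04, 0.12 and 0.28 mM. WFS1, an ER membrane protein, was the only member of this role called: it fell at 0.20 mM from 25.0 to 19.3 CPM (-0.38, SE 0.12, adjusted p = 0.0318), a call lost without any 1 of the 6 libraries (-0.40 to -0.36, adjusted p = 0.0619 to 0.108) and passed under 4 of the 9 other settings. ATF6, ATF6B and CREB3L2 passed in none of the 4 comparisons.

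Among the ERAD genes, SYVN1 (HRD1, chr11:65127279-65134519), the ubiquitin ligase of the ER membrane, fell while SELENOS rose. SYVN1 stood at 74.0, 52.3 and 48.7 CPM in full medium, at 56.9, 46.1 and 45.2 at 0.28 mM, at 54.2, 41.0 and 41.4 at 0.20 mM, at 51.8, 39.7 and 44.1 at 0.12 mM and at 59.6, 46.4 and 38.4 at 0.04 mM. Every limited library was below its full-medium counterpart, with overlap between groups. SYVN1 fell by 0.26, 0.37 and 0.35 on the log2 scale at 0.04, 0.12 and 0.20 mM (SE 0.0896, 0.0879 and 0.0861; adjusted p = 0.0482, 0.00653 and 0.00551), and had -0.23 at 0.28 mM (0.152). The call at 0.20 mM passed without each of the 6 libraries (-0.40 to -0.29), that at 0.12 mM was lost only without 0.12 mM replicate 1 (-0.33, adjusted p = 0.068), and that at 0.04 mM was kept only without full medium replicate 3 (-0.31, 0.0385), with values of -0.20 and -0.19 without 0.04 mM replicate 3 and full medium replicate 1. Of the 9 other settings, 7 kept the call at 0.20 mM, which spike-in scaling (-0.40, adjusted p = 0.079) and the GC and length offset (-0.25, 0.0567) ended. At 0.12 mM 7 kept it, not the compared groups alone (-0.37, 0.0707) or thinned libraries (-0.34, 0.193), and at 0.04 mM 0 did (-0.28 to -0.21). Its exons overlap those of other genes over 10.1% of their length, and the strand rule of the counting is not given in the sources used here.

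SELENOS (chr15:101270809-101277485), a selenoprotein of the retrotranslocation complex, stood at 35.0, 39.99 and 22.5 CPM in full medium, at 37.5, 43.8 and 28.0 at 0.28 mM, at 42.3, 46.9 and 34.6 at 0.20 mM, at 37.0, 35.4 and 39.9 at 0.12 mM and at 41.2, 48.9 and 39.5 at 0.04 mM. Full medium replicate 3 was the lowest library of all 15, and the groups overlapped. SELENOS rose by 0.40 at 0.04 mM (SE 0.12, adjusted p = 0.0237) and 0.35 at 0.20 mM (SE 0.116, 0.04), and had 0.20 and 0.16 at 0.12 and 0.28 mM (0.346 and 0.53). Without full medium replicate 3 the value at 0.04 mM was 0.27 (adjusted p = 0.151), and that call was also lost without 0.04 mM replicate 2 (0.39, 0.0999) or 3 (0.35, 0.0887). The call at 0.20 mM was lost without full medium replicate 3 or any 1 of the 0.20 mM libraries (0.22 to 0.43). The 2 calls passed under 5 and 6 of the 9 other settings, and in thinned libraries the value at 0.20 mM was 0.17 (adjusted p = 0.646). EDEM1, a mannosidase-like ERAD factor, rose at 0.04 mM from 141.0 to 168 CPM (0.25, SE 0.0745, adjusted p = 0.0206), a call lost without full medium replicates 2 or 3 or 0.04 mM replicates 2 or 3 (0.19 to 0.34). It passed under 3 of the 9 other settings, and its value was 0.16 (adjusted p = 0.154) with the GC and length offset.

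HERPUD1 (chr16:56932142-56944864), a scaffold of the SYVN1 complex and a known target of all 3 arms, stood at 38.6, 38.5 and 38.5 CPM in full medium, at 41.5, 39.3 and 41.1 at 0.28 mM, at 35.9, 37.9 and 36.5 at 0.20 mM, at 40.02, 44.1 and 41.8 at 0.12 mM and at 43.1, 37.6 and 50.3 at 0.04 mM. The 3 full-medium libraries were nearly equal, so that 0.28 and 0.12 mM lay above them and 0.20 mM below them without overlap. Its log2 fold changes of 0.16, 0.12, -0.069 and 0.077, for the 4 concentrations from the lowest up, did not pass (adjusted p = 0.287, 0.478, 0.687 and 0.743). SEL1L, EDEM2, DERL1, DERL2 and SELENOK also passed in none of the 4 comparisons.

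In the translocon, the channel through which chains enter the ER, the small subunit SEC61G was called and the large subunit SEC61A1 was not. SEC61G (chr7:54752253-54759211) stood at 13.5, 34.7 and 22.9 CPM in full medium, at 20.2, 35.7 and 25.7 at 0.28 mM, at 27.8, 37.4 and 25.9 at 0.20 mM, at 27.5, 28.96 and 27.7 at 0.12 mM and at 31.2, 33.3 and 34.6 at 0.04 mM. The full-medium libraries were the most spread, from 13.5 in replicate 1 to 34.7 in replicate 2, and the limited libraries lay within or near that range. SEC61G rose by 0.54 at 0.04 mM (SE 0.158, adjusted p = 0.0203), with 0.27 (0.225) once full medium replicate 1 was left out and 0.40 (0.169) or 0.48 (0.0785) without 0.04 mM replicates 1 or 3. The call passed under 5 of the 9 other settings (0.48 to 0.62). Its values of 0.22 at 0.28 mM, 0.40 at 0.20 mM and 0.31 at 0.12 mM did not pass (0.518, 0.0714 and 0.239). SEC63, a J-protein partner of the channel, rose at 0.20 mM from 92.6 to 107 CPM (0.21, SE 0.0717, adjusted p = 0.0444) without overlap; the call was lost without full medium replicates 1 or 3 or 0.20 mM replicates 1 or 3 (0.16 to 0.26), and 2 pseudogenes carry its name. It passed under 3 of the 9 other settings, and with the GC and length offset its value was 0.018 (adjusted p = 0.924). SEC61A1, SEC61B and SEC62 passed in none.

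**Figure D4:**
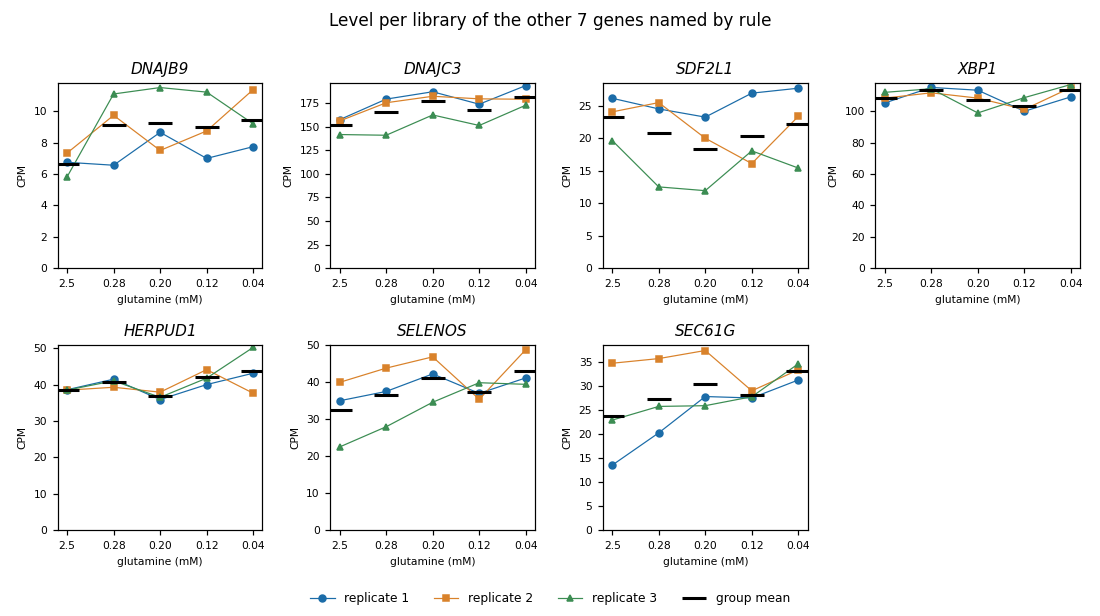
Level in CPM (vertical axis, from 0) of the other 7 genes given library by library, by glutamine concentration in mM (horizontal axis, equally spaced); points are libraries, lines join libraries of 1 replicate number, and black bars are means of 3. DNAJC3 at 0.20 and 0.04 mM lies above all full-medium libraries, HERPUD1 is nearly equal in the 3 full-medium libraries, and SEC61G in full medium runs from 13.5 to 34.7 CPM.

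Of the members with an ER stress element, some were called lower and others passed in no comparison. Of the 10 with ERSE or ERSE-II, 0 rose at any concentration and 2, 3, 4 and 0 fell in order of rising glutamine: HYOU1 and CALR in the first 3, with CRELD2 at 0.12 and 0.20 mM and HSPA5 at 0.20 mM. Their median log2 fold changes were -0.058, -0.14, -0.16 and -0.094. Of the 27 with a window and neither element, 5, 0, 3 and 0 rose and 2, 2, 4 and 0 fell, with medians of 0.023, 0.039, -0.002 and 0.035. Of all tested genes 7.21, 4.41, 7.67 and 1.23% rose and 6.23, 3.9, 7.15 and 0.846% fell in these comparisons, so with sets of this size each count rests on a few genes. HSP90B1, CANX, ERO1B, XBP1, SDF2L1 and HERPUD1 carry an element and passed in none. MANF, SYVN1, PDIA4 and WFS1, which fell, have neither element in this window. The difference between the sets was not tested.

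**Figure D5:**
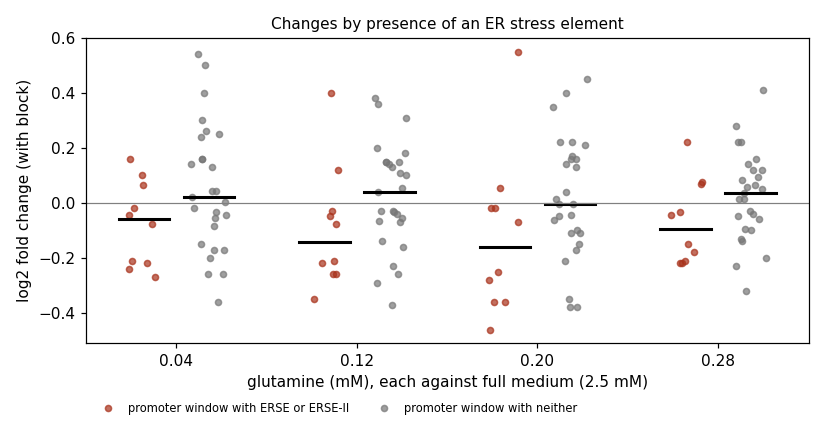
Log2 fold change with the replicate block (vertical axis) of the 10 members whose promoter window holds ERSE or ERSE-II (red) and the 27 whose window holds neither (grey), by comparison with full medium (horizontal axis, glutamine in mM); each point is a gene, spread sideways for legibility, and bars are medians. At 0.20 mM the medians are -0.16 and -0.002, and both sets lie on either side of 0.

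No member was called between concentrations within the limited range. Between 0.04 and 0.28 mM, 0 of 39 passed in edgeR with the block, where 0.0434% of all genes did, and 0 without it, where 0% did; 4 members had an unadjusted p under 0.05 with the block (ERO1A 0.21, MANF -0.23, DNAJC3 0.14 and SEC61G 0.32), and DESeq2 with the block called 0. A slope on log2 glutamine over the 12 limited libraries called 0 members and 0% of genes with the block and without it. There, 2 members, ERO1A and SEC61G, had an unadjusted p under 0.05 with the block, and DESeq2 called 0. For the counts at an unadjusted p the share over all genes is not given here. A p above the threshold does not show that the levels were equal. When the 3 full-medium libraries were added to the slope, 11 members passed with the block, where 15.6% of all genes tested did.

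Other genes of the ER pathways, 138 in 8 lists of which 135 were tested, were called in both directions. With the block 7 rose and 7 fell at 0.04 mM, 6 rose and 2 fell at 0.12 mM, 17 rose and 8 fell at 0.20 mM, and 3 rose at 0.28 mM. From the lowest concentration up, 5.19, 4.44, 12.6 and 2.22% of the 135 rose, beside 7.21, 4.41, 7.67 and 1.23% of all tested genes. In the same order 5.19, 1.48, 5.93 and 0% fell, beside 6.23, 3.9, 7.15 and 0.846%. The lists had medians of -0.027, -0.022, -0.011 and -0.028; without the block edgeR called 0 in each of the 4. In the list named PERK arm, 1 of 9 rose at 0.04, 0.12 and 0.28 mM. This was TRIB3, a pseudokinase induced by ATF4 (0.30, 0.26 and 0.27, with adjusted p = 0.00838, 0.026 and 0.0491 in edgeR with the block). The name of the list does not show that PERK acted, and what lay upstream of ATF4 was not tested. ATF4 itself went from a mean of 383 to 460 CPM at 0.04 mM without passing (0.23, SE 0.0826, adjusted p = 0.0636). EIF2AK3 had 0.067 (adjusted p = 0.781), PPP1R15A, a phosphatase subunit, 0.48 (0.0526), and CHAC1, a glutathione-degrading enzyme, 1.32 (0.118) from 0.984 to 3.71 CPM. DDIT3 (CHOP), at 2.39 CPM in full medium and with 39.6% of its exons overlapping other genes, had 0.19 (0.827).

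The other lists were led at 0.04 mM by single genes. All of these calls are from the fit with the block, and none passed in edgeR without it. How they fare with single libraries left out or with the GC and length offset is not given here. In other ER folding and redox, 3 of 23 rose (HSPA13 0.48, TMX3 0.32 and QSOX1 0.28, a sulfhydryl oxidase) and 2 fell (PDIA5 -0.43 and ERP29 -0.32). The QSOX1 value was 0.23 at 0.28 mM (adjusted p = 0.0317), a concentration at which no member passed. In targeting and signal peptide removal, SRP9 (0.32) and TRAM1 (0.27) rose and the receptor subunit SRPRA (-0.24) fell, of 20 tested. Of 28 other ERAD genes ERLIN2, a factor that degrades the IP3 receptor, fell (-0.42, SE 0.087, adjusted p = 0.00146), while ERLIN1 had -0.094 (0.475). Of 8 ER calcium genes ITPR2, an IP3 receptor, rose (0.39, SE 0.0806, adjusted p = 0.00142). The receptor genes ITPR1 and ITPR3 had -0.16 (0.439) and 0.11 (0.305) and did not pass. A link between ERLIN2 and ITPR2 was not tested. Of 10 partners of sensor activation, the XBP1 mRNA ligase RTCB (-0.26) and NFYA (-0.24), a subunit of NF-Y, fell. PREB (-0.23) was the 1 of 20 ER exit and retrieval genes called, and 0 of 17 N-glycan genes passed at 0.04 mM (4 at an unadjusted p under 0.05). For that last count the share over all genes is not given here.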

How the data were processed

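Total RNA was depleted of ribosomal RNA, spiked with ERCC RNAs and sequenced, per the labels' protocols. The authors deposited whole-number counts per gene and library, used as deposited; the build is GRCh38.p14 (hg38), per the submitters' processing notes, and for aligner, counter and strandedness the entry is: not given in the sources used here. Genes passing edgeR 4.0.16's filterByExpr (minimum count 10, minimum total 15) were scaled by TMM and fitted with its quasi-likelihood test (R 4.3.3) over 15 libraries, without and with a replicate block, and adjusted by Benjamini-Hochberg. DESeq2 1.42.0 and the other alternatives are described at the end. The fitting was also run on simulated counts with changes set beforehand. The outcome of that run is not given here and is no support for the calls. The replicate numbers, taken from the labels, pair the libraries: all 30 pairs of the same number had a correlation of deviations from group means above 0.1 (0.184 to 0.489), against 0 of 60 pairs of different numbers (-0.406 to 0.0549). Deviations of the 3 libraries of a group sum to 0, so low values for different numbers partly follow from high values for the same number. CPM uses TMM-scaled library sizes. Variance shares are of log2 CPM with a pseudocount of 1. GC, length and exonic overlap came from GENCODE 29, coordinates and promoters from RefSeq. Precision is limited by 3 replicates a group and 3704170 to 13361406 counts per library.

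The members, role groups and pathway lists were chosen with earlier results of these data known, so no list is independent evidence. Values per library are given for members called in at least 2 comparisons with full medium, the 2 largest rises and falls at 0.04 mM among members of at least 5 CPM, and HSPA5, XBP1, HERPUD1, SDF2L1 and DNAJB9; pathway genes are the up to 4 per list with the smallest adjusted p at 0.04 mM, with EIF2AK3, ATF4, DDIT3 and TRIB3 always. PDIA5, also called at 0.04 mM, is named beyond that rule. Separate cultures are taken from the labels' word for biological replicates.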

Additional observations from a re-analysis of the deposited data

How the results depend on the processing

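Without the replicate block, no alternative called a member in any comparison (DESeq2, its size factors, spike-in scaling, the GC and length offset, the compared groups alone, no low-count filter, and each replicate left out). With the block the members called at 0.04, 0.12 and 0.20 mM against full medium were 9, 5 and 11, and 0 at 0.28 mM. They were 9, 6, 12 and 1 with DESeq2, 7, 5, 12 and 0 with DESeq2 size factors, 1, 8, 3 and 0 with spike-in scaling, 5, 3, 5 and 0 with the GC and length offset (added after the data had been seen), 4, 0, 9 and 0 with the compared groups alone, 2, 3, 12 and 0 without the 2 libraries over 1% mitochondrial ribosomal RNA, 8, 6, 10 and 0 without the low-count filter, 0, 1, 4 and 0 without replicate 3 of all groups, and 0, 2, 3 and 0 with libraries thinned to 3704170 counts. The slope called 11 with the block once full medium was included. Leaving out 1 library gave 0 without the block, and with it 3 to 9 at 0.04 mM, 1 to 6 at 0.12 mM, 4 to 10 at 0.20 mM and 0 to 2 at 0.28 mM (HSPA5 and EDEM1, without full medium replicate 1); 0.04 against 0.28 mM and the slope stayed at 0. Of the 25 calls with the block, 4 passed without each library compared and 2, CALR and CRELD2 at 0.20 mM, under the 9 other alternatives too. All 375 values under these alternatives had the direction of the call. They are refits of the libraries from which the calls were chosen, so the shared direction is no separate support. The uncalled SDF2L1 value at 0.04 mM (-0.042 without and -0.075 with the block) turned to 0.058 with the GC and length offset, 0.031 with the block and the offset, 0.030 with the block and without replicate 3 of all groups, 0.022 with the block and without full medium replicate 3, 0.052 without full medium replicate 1 and 0.13 without 0.04 mM replicate 3 (range over single libraries left out -0.24 to 0.13). The uncalled XBP1 value (0.064) turned to -0.0095 with the block in thinned libraries. The cause was not tested. Depth limits ERO1B and DNAJB9 most among the members tested, with 27 to 97 and 34 to 108 counts per library.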
